A study of Mus musculus with 2 samples.

Results

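The transcription factors Tbx21, Eomes, Zeb2, Id2, Id3, Runx3, Zfp683 and Ikzf3, which are known from the differentiation of cytotoxic lymphocytes, were followed across immune cell classes of mouse squamous cell carcinomas. They were taken by symbol from the gene list of the matrices, as 8 of 31055 genes. Immune cells came from subcutaneous tumours of FVB mice that had received no treatment. Each tumour was a mosaic grown from 2 co-injected carcinoma lines, CIT6 carrying YFP and CIT9 carrying RFP, and both cultured lines had been established from resected carcinomas. Sections were printed with oligonucleotide codes by light (ZipSeq), digested, sorted for the leukocyte protein CD45 and profiled with the 10x Genomics 3' v3 chemistry. The labels give 2 tumours of this 1 group, replicate 1 and replicate 3, called tumour 1 and tumour 3 here. They do not say whether these came from separate animals, so p-values speak only of these samples. The p-values rest on a spread estimated jointly over all classes in the fit, not for each pair of classes alone.

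Tbx21 (T-bet) and Eomes are paired T-box factors that direct interferon and cytolytic genes in natural killer (NK) cells and CD8 T cells. Zeb2 is a zinc finger repressor that acts with T-bet in terminal effector cells and is also needed by plasmacytoid dendritic cells (DCs) and macrophages. Id2 and Id3 bind E proteins such as Tcf4 and keep them from DNA. Id2 is known to favour effector CD8 T cells and conventional over plasmacytoid DCs, and Id3 is known from memory precursors and long-lived memory CD8 T cells. Runx3 represses Cd4 in the CD8 lineage, Zfp683 (Hobit) marks tissue-resident lymphocytes in mice, and Ikzf3 (Aiolos) is a lymphoid zinc finger factor.

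On the GRCm38 annotation, the genes of the T-box factors were Tbx21 at chr11:97098071-97115331 on the minus strand and Eomes at chr9:118478212-118486132 on the plus strand. Zeb2 lay at chr2:44983632-45117395 and Id2 at chr12:25093799-25097140, both on the minus strand. Id3 at chr4:136143497-136145755, Runx3 at chr4:135120652-135177990 and Zfp683 at chr4:134053838-134058996 lay on the plus strand of chromosome 4. Ikzf3 lay at chr11:98464902-98546031 on the minus strand. Antisense genes overlapped Eomes (Gm33460), Zeb2 (Zeb2os) and Runx3 (Gm16224), and whether the counting used strand is not given in the sources used here. Gm33460 itself had 10 UMIs in NK cells of tumour 1 and 9 in those of tumour 3, beside 203 and 279 for Eomes. Zeb2os had 3 and 15 UMIs there, beside 43 and 127 for Zeb2.

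The 250 bases before the transcription start of the T-box genes are shown because both genes were highest in NK cells, and are from RefSeq on GRCm38.p6, for 6 of the 8 factors that matched its promoter table. The Tbx21 window is chr11:97115332-97115581 on the minus strand and the Eomes window is chr9:118477939-118478188 on the plus strand. Capitals mark CAGGTG, the letters of a ZEB-type E-box.
Tbx21: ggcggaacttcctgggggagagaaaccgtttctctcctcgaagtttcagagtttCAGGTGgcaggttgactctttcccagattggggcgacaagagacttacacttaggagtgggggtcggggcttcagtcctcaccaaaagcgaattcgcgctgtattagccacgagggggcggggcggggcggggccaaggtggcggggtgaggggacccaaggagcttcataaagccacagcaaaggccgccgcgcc
Eomes: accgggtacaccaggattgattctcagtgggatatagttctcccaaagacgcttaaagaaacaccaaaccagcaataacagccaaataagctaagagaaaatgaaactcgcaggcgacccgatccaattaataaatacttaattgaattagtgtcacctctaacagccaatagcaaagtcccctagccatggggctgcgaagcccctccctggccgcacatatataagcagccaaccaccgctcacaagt
G and C made up 60.8% of the Tbx21 window and 46.4% of the Eomes window. Of the 4 motifs searched on both strands, the Tbx21 window held CAGGTG once, 196 bases before the start, and the Eomes window held none. CAGGTG occurred in 17.2% of 32851 mouse promoter windows of this length, against 14.0% for TGTGGT (a RUNX motif), 3.33% for GGTGTGA (a T-box motif) and 12.4% for TATAAA. A match is a description of letters and not a binding site.

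Tumour 1 held 89040909 gene UMIs (unique molecular identifiers, counts of captured transcripts) and tumour 3 held 170328781, in 4818 and 6734 called cells, of which 9 barcodes were shared. Classes were gated here on fixed markers and are not the authors' annotation. NK cells needed 2 UMIs of Ncr1, Klre1 or Klrb1c and at most 1 of CD3 genes, and T cells 2 UMIs of CD3 genes with Cd8a or Cd8b1, Cd4 or Foxp3. Xcr1 or Clec9a set the cDC1 gate, Flt3 with Cd209a the cDC2 gate, and Siglech with Ccr9, Cox6a2 or Klk1 the plasmacytoid gate, so these genes are no result here. The gates gave 110 and 199 NK cells in tumours 1 and 3, 39 and 259 CD8 T cells, 218 and 196 Foxp3-positive regulatory T cells, and 80 and 149 CD4 T cells without a Foxp3 UMI. Among DCs there were 15 and 17 activated DCs (Ccr7 and Fscn1), 15 and 30 type 1 conventional DCs (cDC1), and 29 and 39 type 2 conventional DCs (cDC2), with 2170 and 2836 macrophages as a class that should lack the T-box factors. Of 477 and 889 T cells, 140 and 285 lay in no class. The plasmacytoid gate held 6 and 70 cells, because 6 and 89 further cells also passed the cDC2 gate. In tumour 1 the 4 neutrophil markers summed to 10304 CPM in those 6 cells, 1322 CPM in CD4 T cells, 657 CPM in regulatory T cells, 252 CPM in NK cells and 26.2 CPM in CD8 T cells. In tumour 3 they summed to at most 11.1 CPM in any lymphocyte class, and their part in the values was not tested. Of markers not used for gating, 6 of 7 were highest in NK cells in both tumours and 5 of 5 in regulatory T cells. The counts were 4 of 5 for activated DCs, 5 of 6 for plasmacytoid DCs, 3 of 5 for cDC1 and 3 of 5 for cDC2. They were 1 of 4 for CD4 T cells and 0 of 5 for CD8 T cells, whose list holds genes of all T cells. Regulatory markers summed to 5660 and 4413 CPM (UMIs of a class scaled to a common total) in regulatory T cells and to 2384 and 2011 CPM in CD4 T cells, so the CD4 gate may hold regulatory cells. The 6 plasmacytoid markers summed to 5235 and 5353 CPM in plasmacytoid DCs and to 440 and 609 CPM in cDC2. They summed to 50.6 and 59.4 CPM in cDC1 and 146 and 397 CPM in activated DCs. The cDC2 gate may thus hold plasmacytoid cells, and their part in the comparisons with cDC2 was not tested. The NK gate may hold type 1 innate lymphoid cells.

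Tbx21 was highest in NK cells, at 53.6 CPM in tumour 1 and 43.1 CPM in tumour 3. CD8 T cells had 16.4 and 24.4 CPM, from 5 and 66 UMIs. NK cells lay above CD8 T cells in both tumours, 3.27-fold in tumour 1 (95% counting interval 1.34 to 10.4) and 1.77-fold in tumour 3 (1.29 to 2.44). Counting intervals here cover counting error only. Regulatory T cells had 14.5 and 16.02 CPM and CD4 T cells had 15.8 and 10.6 CPM, and these ranges overlapped. Each conventional or activated DC sum held at most 1 Tbx21 UMI, and macrophages had 0.0889 and 0.163 CPM.

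Eomes separated the classes more widely. NK cells had 147 and 117 CPM in tumours 1 and 3, and CD8 T cells had 49.1 and 39.1 CPM. The NK level was 2.99-fold the CD8 T level in tumour 1 and 2.98-fold in tumour 3, with no overlap. Regulatory T cells stood at 4.27 and 5.34 CPM, from 5 and 10 UMIs. CD4 T cells had 2 UMIs (4.53 CPM) in tumour 1 and 0 in tumour 3. All gated DC sums were at 0, and macrophages had 0.0222 and 0.1003 CPM. The free RNA of nearly empty droplets held 11.5 and 3.63 CPM of Eomes, which are shares of free RNA and not of a cell's UMIs. The regulatory and CD4 T levels of tumour 1 were below the first value, as was the macrophage level. How much of each cell's UMIs was free RNA was not measured.

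Among single cells, 66 of 110 NK cells had an Eomes UMI in tumour 1 and 115 of 199 in tumour 3, against 25.6% and 22.8% of CD8 T cells. In macrophages, which were sequenced more deeply (median 19633 and 24370.5 UMIs, against 10699 and 8854 in NK cells), 1 and 8 cells had one. After each cell was thinned to 2000 UMIs, leaving out 1 shallower NK cell per tumour and 2 and 1 CD8 T cells, Eomes remained in 19.3% and 25.3% of NK cells and in 8.11% and 6.59% of CD8 T cells. Both T-box factors were detected in 31 of 110 NK cells of tumour 1 and 43 of 199 of tumour 3. Among CD8 T cells the pair met in 0 of 39 and 7 of 259. NK cells with both had median depths of 15007 and 16442 UMIs and those with neither had 7384 and 6236, so co-detection moved with depth.

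**Figure D1:**
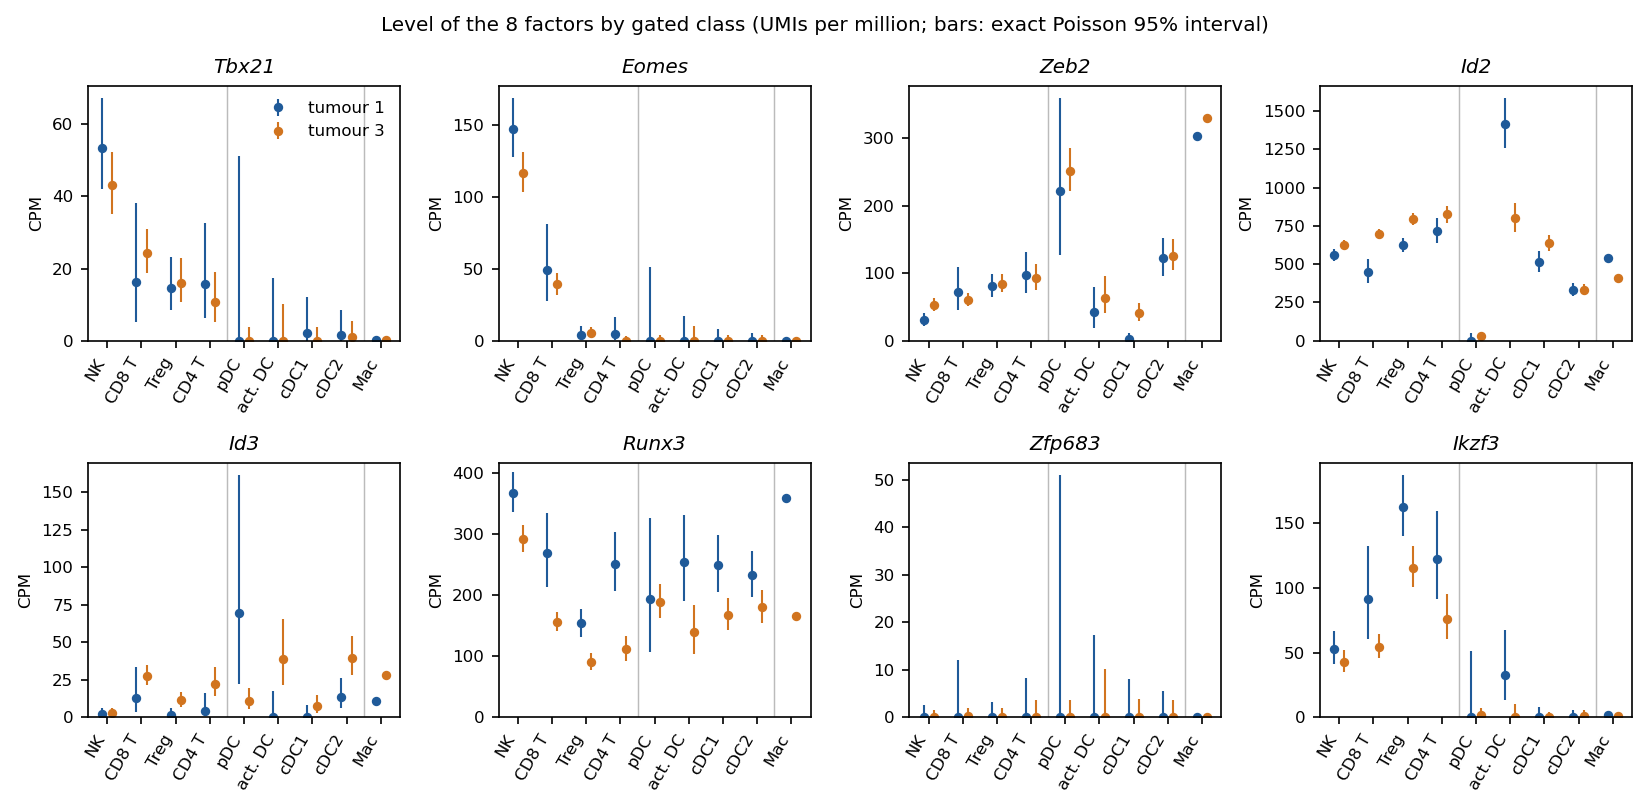
Level of each factor in CPM (linear axis) by gated class, with tumour 1 in blue and tumour 3 in orange; bars are exact Poisson 95% intervals. Tbx21 and Eomes were highest in NK cells in both tumours, Zeb2 in macrophages, and Id2 in activated DCs in tumour 1, while the plasmacytoid DC points rest on 6 and 70 cells.

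**Figure D2:**
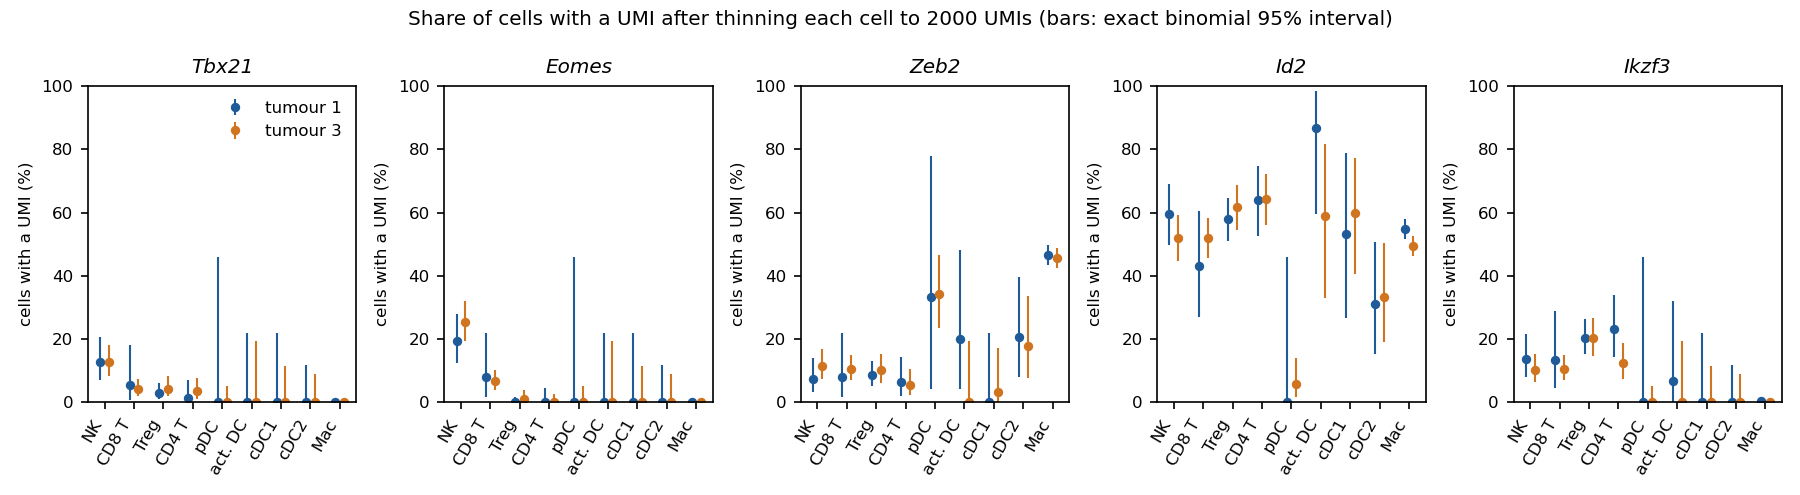
Share of cells with a UMI (%) after thinning every cell to 2000 UMIs, by class and tumour, with 1000 macrophages drawn per tumour; bars are exact binomial 95% intervals. Eomes was found in 19.3% and 25.3% of NK cells, and Id2 in 0% and 5.71% of the fixed plasmacytoid DC gate against 31.0% and 33.3% of cDC2.

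Zeb2 was highest in macrophages, plasmacytoid DCs and cDC2, while CD4 and regulatory T cells lay above activated DCs and cDC1 in both tumours. Macrophages had 304 and 330 CPM in tumours 1 and 3, plasmacytoid DCs 222 and 252 CPM and cDC2 122 and 126 CPM, and none of these ranges overlapped. CD4 T cells had 97.4 and 93.8 CPM, regulatory T cells 81.0 and 84.9 CPM and CD8 T cells 72.1 and 60.9 CPM. NK cells had 31.1 and 53.1 CPM, activated DCs 42.3 and 63.9 CPM and cDC1 2.20 and 40.7 CPM. NK cells were therefore below every T class in both tumours, and the tested difference from CD8 T cells did not pass (log2 fold change -0.57 ± 0.40, edgeR adjusted p = 0.627). The free RNA held 233 and 296 CPM. Once 10% of each class's UMIs were taken as free RNA, Zeb2 stood at 8.78 and 25.9 CPM in NK cells, 54.0 and 34.7 CPM in CD8 T cells, and 82.6 and 70.6 CPM in CD4 T cells. The 5 macrophage markers summed to 387 and 538 CPM in NK cells, 337 and 580 CPM in CD8 T cells and 607 and 767 CPM in CD4 T cells, against 49674 and 34735 CPM in macrophages; part of that list also limits these gates, and its part in the Zeb2 level was not tested.

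Runx3 was broadly expressed. NK cells had 367 and 292 CPM, CD8 T cells 269 and 156 CPM, CD4 T cells 251 and 111 CPM and regulatory T cells 154 and 90.8 CPM. Macrophages had 358 and 166 CPM, within the lymphocyte range. DC classes lay between 139 and 254 CPM. Tumour 1 was above tumour 3 in 9 of 9 classes, and its free RNA was higher too, at 191 CPM against 132 CPM. The NK range did not overlap that of any T class.

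Zfp683 was nearly absent. The matrices held 1 UMI in tumour 1 and 2 in tumour 3 over all barcodes, and 1 UMI in all gated sums, in a CD8 T cell of tumour 3. A count of 0 allows up to 2.17 CPM in NK cells of tumour 1 and 1.25 CPM in those of tumour 3, and up to 9.83 CPM in CD8 T cells of tumour 1, taking 3 counts as the limit. The upper ends of the exact Poisson 95% intervals of the plot of levels were 2.67, 1.54 and 12.1 CPM for the same sums. Zfp683 did not pass the filter on low counts and no comparison was made for it.

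Id2 was high in every lymphocyte class and in conventional and activated DCs, and low in plasmacytoid DCs. Activated DCs had 1414 and 800 CPM in tumours 1 and 3. The lymphocyte classes lay close together, with 718 and 825 CPM in CD4 T cells, 625 and 795 CPM in regulatory T cells, 560 and 628 CPM in NK cells and 449 and 699 CPM in CD8 T cells, and neighbouring ranges in this order overlapped. cDC1 had 514 and 636 CPM and cDC2 333 and 331 CPM, which did not overlap. Plasmacytoid DCs had 0 and 30.2 CPM. All cells of the plasmacytoid gate were then counted, including those that also passed another gate. Of these, 0 of 12 cells in tumour 1 and 29 of 161 in tumour 3 had an Id2 UMI, at 0 and 39.7 CPM. Macrophages had 539 and 408 CPM and the free RNA 469 and 573 CPM.

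Id3 was low in the same cells. CD8 T cells had 13.1 and 27.7 CPM (4 and 75 UMIs), CD4 T cells 4.53 and 22.2 CPM, regulatory T cells 1.71 and 11.2 CPM, and NK cells 2.17 and 2.93 CPM (3 and 7 UMIs). cDC2 had 13.7 and 39.4 CPM and cDC1 0 and 7.30 CPM. Tumour 3 was higher in 8 of 9 classes, and its free RNA held 61.7 CPM of Id3, against 19.0 CPM in tumour 1. Every lymphocyte level was below the free RNA of its tumour, a share of free RNA and not of a cell's UMIs.

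Ikzf3 followed the T cells. Regulatory T cells had 163 and 116 CPM, CD4 T cells 122 and 76.4 CPM, CD8 T cells 91.7 and 54.7 CPM and NK cells 52.8 and 43.1 CPM. That order was the same in both tumours, but none of the 3 tested differences among lymphocyte classes passed. Activated DCs had 7 UMIs (32.9 CPM) in tumour 1 and 0 in tumour 3, while cDC1, cDC2 and plasmacytoid sums had at most 2.02 CPM. Macrophages had 1.98 and 0.677 CPM. The free RNA held 33.4 and 8.16 CPM of Ikzf3 in tumours 1 and 3, again as shares of free RNA and not of a cell's UMIs. Under the same free RNA, cDC1 and cDC2 of tumour 1 had 0 UMIs. The part of free RNA in the activated DC level of tumour 1 was not tested.

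Differences between classes were tested with edgeR's quasi-likelihood test on the summed counts with the tumour as a block, with Benjamini-Hochberg adjustment across every gene in the fit. Of the 8 factors, 7 passed the filter. In NK cells against CD8 T cells, 2 of 7 factors were called, beside 3.77% of all 9468 genes. Eomes was higher, with a log2 fold change of 1.59 ± 0.33 (SE, edgeR adjusted p = 0.0208), in both tumours. Each SE given here was derived from the log2 fold change and the F statistic of the test. Id3 was lower, at -3.04 ± 0.57 (edgeR adjusted p = 0.00655). Per tumour the Id3 ratio was 6.03-fold lower in NK cells of tumour 1 (counting interval 1.02 to 41.2) and 9.46-fold lower in tumour 3 (4.37 to 24.3). Tbx21 (1.05 ± 0.35, edgeR adjusted p = 0.141) and Runx3 (0.69 ± 0.21, edgeR adjusted p = 0.107) did not pass, although both were higher in NK cells in both tumours. The Eomes and Id3 calls were lost without the tumour block, with edgeR adjusted p of 0.0966 and 0.200.

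Gamma delta T markers summed to 125 and 164 CPM in NK cells against 216 and 70.5 CPM in CD8 T cells, and neutrophil markers to 252 and 1.67 CPM against 26.2 and 11.1 CPM, with their part in the result not tested. Related genes moved in both directions between NK and CD8 T cells. Of 17 cytotoxic and type 1 genes tested, 2 rose in NK cells and 1 fell, with a median log2 fold change of 0.57 over the list against -0.01 over all genes. Gzma, a granzyme, had 291 and 345 CPM in NK cells against 0 and 7.02 CPM in CD8 T cells, and perforin (Prf1) had 552 and 411 CPM against 39.3 and 94.2 CPM. The chemokine receptor Cxcr3 fell, at 15.9 and 21.3 CPM against 88.5 and 61.3 CPM. Of 6 residency genes Cxcr6 fell, with 42.0 and 16.3 CPM in NK cells against 315 and 327 CPM in CD8 T cells. Of 9 recirculation genes Il7r and S1pr1 fell. Of the other factors, Bcl11b and Irf4 fell (Irf4 with 0 UMIs in NK cells) and Irf8 rose, at 551 and 548 CPM in NK cells against 85.2 and 154 CPM in CD8 T cells. Among the 9 relatives of the factors, Ikzf4 fell, and 0 of 4 E protein and Id genes passed.

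In CD8 T cells against CD4 T cells, 1 of 7 factors was called, beside 1.82% of all genes. Eomes was higher in CD8 T cells (edgeR adjusted p = 0.00644), 10.9-fold in tumour 1 (counting interval 2.52 to 97.8 on 15 and 2 UMIs). In tumour 3 it was at least 13.5-fold higher, with 106 UMIs in CD8 T cells against a count of 0 taken as a floor of 3, and the two-sided 95% counting interval of that ratio began at 10.8. Runx3, with a log2 fold change of 0.40 ± 0.23, did not pass (edgeR adjusted p = 0.472), nor did Tbx21 at 0.99 ± 0.45 (edgeR adjusted p = 0.337). Among cytotoxic genes, 2 of 17 rose and 0 fell, with a median of 0.88 over the list against -0.04 over all genes. The chemokine Xcl1 had 308 and 1110 CPM in CD8 T cells against 4.53 and 6.77 CPM in CD4 T cells, and Nkg7 1435 and 1785 CPM against 546 and 527 CPM. Other markers moved with this comparison. The 4 neutrophil markers summed to 26.2 and 11.1 CPM in CD8 T cells against 1322 and 4.84 CPM in CD4 T cells, the 4 carcinoma or stroma markers to 0 and 4.43 CPM against 4.53 and 203 CPM, and the 3 gamma delta T markers to 216 and 70.5 CPM against 24.9 and 8.70 CPM. Their part in the result was not tested. Runx1 fell, at 52.4 and 38.8 CPM in CD8 T cells against 174 and 140 CPM in CD4 T cells. Zbtb7b (ThPOK), the factor that holds the CD4 lineage, fell at 9.83 and 4.06 CPM against 38.5 and 18.4 CPM. Il7r fell as 1 of 9 recirculation genes, and 0 of 6 residency and 0 of 8 DC genes passed.

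In regulatory T cells against CD4 T cells, 0 of 7 factors were called with edgeR, beside 0.623% of all genes. At an unadjusted p under 0.05 there was 1 factor, Runx3, whose log2 fold change was -0.57 ± 0.22 (edgeR adjusted p = 0.426), and DESeq2 also called 0 of 7. Ikzf3 stood at 0.45 ± 0.35 and did not pass (edgeR adjusted p = 0.785). Neutrophil markers summed to 657 and 4.81 CPM in regulatory T cells against 1322 and 4.84 CPM in CD4 T cells, and carcinoma or stroma markers to 1.71 and 4.81 CPM against 4.53 and 203 CPM, with their part in the result not tested. The related factor Ikzf2 (Helios), which is known from regulatory cells, rose, with 1525 and 856 CPM in regulatory T cells against 534 and 280 CPM in CD4 T cells. The memory factor Tcf7 fell, at 8.53 and 11.2 CPM in regulatory T cells against 138 and 138 CPM in CD4 T cells, and Klf3 fell too. The 9 recirculation genes that include both had a median log2 fold change of -0.86. Of 17 cytotoxic genes 2 rose, Xcl1 and the lectin receptor Klrg1, which had 152 and 103 CPM in regulatory T cells against 31.7 and 11.6 CPM in CD4 T cells.

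In cDC1 against cDC2, 2 of 7 factors were called, beside 5.57% of all genes. Eomes had 0 UMIs in these sums and Tbx21 and Ikzf3 at most 1 in each, so these factors could not be called here. They passed the filter through other classes. Zeb2 was lower in cDC1, with 1 and 39 UMIs (2.20 and 40.7 CPM) against 122 and 126 CPM in cDC2 and a log2 fold change of -2.14 ± 0.45 (edgeR adjusted p = 0.0103). In cDC1 of tumour 3 its 39 UMIs lay in 7 of 30 cells, where macrophage markers summed to 1159 CPM against 248 CPM in tumour 1, and their part in that level was not tested. Id3 was lower in cDC1 (-2.51 ± 0.64, edgeR adjusted p = 0.0316), from 0 and 7 UMIs against 9 and 39. That call was lost without the tumour block (edgeR adjusted p = 0.397) and with the plasmacytoid overlaps kept apart (edgeR adjusted p = 0.0914). Id2 did not pass, with 0.93 ± 0.29 (edgeR adjusted p = 0.0802), although it was 1.55-fold and 1.92-fold higher in cDC1 in tumours 1 and 3. Irf8, the cDC1 factor, rose with 1387 and 1643 CPM in cDC1 against 74.8 and 95.9 CPM in cDC2. Tcf4, an E protein, fell to 24.2 and 36.5 CPM against 105 and 106 CPM, and Irf4 fell to 2.20 and 5.21 CPM against 35.1 and 29.3 CPM. Tcf4 is also 1 of the 6 plasmacytoid markers, which summed to 440 and 609 CPM in cDC2 against 50.6 and 59.4 CPM in cDC1. The part of plasmacytoid cells in the Tcf4 and Zeb2 values of cDC2 was not tested. The residency genes Itgae and Ahr rose and Cd69 fell, Klf2 and Cxcr3 rose, and Il7r and Il18rap had 0 UMIs in cDC1.

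In activated DCs against cDC2, 1 of 7 factors was called, beside 13.6% of all genes. Eomes had 0 UMIs in these sums and Tbx21 at most 1 in each, so neither could be called here. Id2 was higher, with a log2 fold change of 1.82 ± 0.30 (edgeR adjusted p = 0.00109), 4.25-fold in tumour 1 and 2.42-fold in tumour 3. Zeb2, at 42.3 and 63.9 CPM in activated DCs against 122 and 126 CPM in cDC2, did not pass with edgeR (-1.14 ± 0.47, adjusted p = 0.131). Ikzf3 did not pass either (edgeR adjusted p = 0.0831), its 7 UMIs being in tumour 1 alone. The 2 tumours held 15 and 17 activated cells, and carcinoma or stroma markers summed to 1081 CPM in those of tumour 3, against 9.40 CPM in tumour 1, with their part in the values not tested. Of 8 DC factors, 3 rose and 1 fell, with a median log2 fold change of 0.89 over the list against -0.04 over all genes. Relb, an NF-kB subunit, had 390 and 395 CPM in activated DCs against 41.2 and 80.8 CPM in cDC2, Irf8 and Spib also rose and Klf4 fell. Of 9 relatives of the factors 3 rose, Ikzf4 and Runx2 among them, and 2 fell, with Runx1 at 61.1 and 36.1 CPM in activated DCs against 262 and 137 CPM in cDC2. Ccl5 rose as 1 of 17 cytotoxic genes, at 5188 and 2307 CPM against 12.2 and 54.5 CPM, but 12 of these 17 had 0 UMIs in 1 or both classes. Stat4, Tcf7, Il7r and Foxo1 rose while Itgae fell.

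Plasmacytoid DCs could be tested against cDC2 only when cells that also passed another gate were kept as plasmacytoid. This was chosen after seeing that the fixed gate left 6 cells in tumour 1. With 12 and 161 cells, 1 of 7 factors was called, beside 28.0% of all 9720 genes. Eomes had 0 UMIs in these sums and Tbx21 at most 2 in each, so neither could be called here. Id2 was lower in plasmacytoid DCs (edgeR adjusted p = 1.39e-05), at least 17.0-fold in tumour 1 (0 UMIs taken as a floor of 3, with a 95% counting interval from 13.7) and 8.35-fold in tumour 3 (counting interval 6.64 to 10.6). Zeb2, at 235 and 262 CPM in plasmacytoid DCs against 122 and 126 CPM in cDC2, did not pass (0.81 ± 0.34, edgeR adjusted p = 0.0914). Id3 did not pass either (-1.51 ± 0.66, edgeR adjusted p = 0.0998). It had opposite signs in the tumours, with log2 ratios of CPM + 10 of 1.05 in tumour 1 (6 UMIs in plasmacytoid DCs against 9 in cDC2) and -1.27 in tumour 3 (26 UMIs against 39). Among 4 E protein and Id genes 2 rose and 1 fell, with a median log2 fold change of 1.49. The E protein Tcf4 had 883 and 1229 CPM in plasmacytoid DCs against 105 and 106 CPM in cDC2, and Tcf12 255 and 205 CPM against 27.5 and 23.2 CPM, and Id1 fell. Runx2 rose to 373 and 272 CPM against 12.2 and 17.2 CPM in cDC2, and its partner Cbfb fell to 32.7 and 25.9 CPM against 62.6 and 60.6 CPM. Of 8 DC factors 3 rose (Irf8, Bcl11a and Spib) and 5 fell, with a median of -1.83, and Nfil3 stood at 52.3 and 49.8 CPM in plasmacytoid DCs against 186 and 191 CPM in cDC2. Among recirculation genes Il7r and Foxo1 rose and Klf3 fell, and of 6 residency genes Rgs1 and Itgae fell. Of 17 cytotoxic genes 4 rose, Cxcr3 with the smallest p, and 2 fell, Il18rap and Ccl5, while 7 of the 17 had 0 UMIs in 1 or both classes. Stat4 and Bcl6 fell and Ikzf2 rose.

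**Figure D3:**
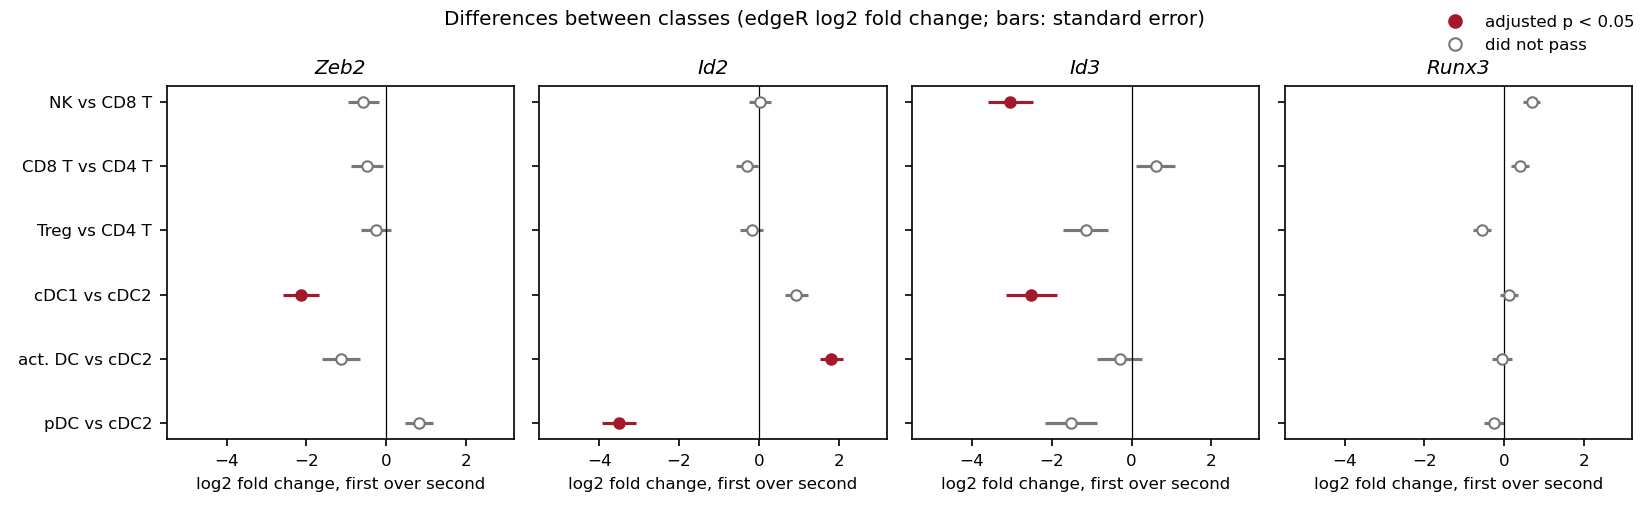
edgeR log2 fold change of the first class over the second for Zeb2, Id2, Id3 and Runx3, with standard errors as bars; filled red points passed the adjusted threshold of 0.05. Id2 was -3.50 in plasmacytoid DCs and 1.82 in activated DCs, each against cDC2, while Runx3 passed in no comparison.

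Over the 16 class sums that entered, the genes most like each factor in log2(CPM + 10) were named by Pearson's r across 11830 genes, as a description. For Tbx21 they were Prf1 (r = 0.978), Flt3l and Txk, and for Eomes Emid1 (r = 0.993), Samd3 and Klra1. Tbx21 and Eomes had r = 0.884 with each other, and Tbx21 and Zeb2 had -0.236. For Zeb2 they were Ctsa (r = 0.916), Neu1 and Ets2, for Id2 Hspa2 (r = 0.892), Crebl2 and Fbxw17, and for Ikzf3 Vgll4 (r = 0.974), Nmb and D16Ertd472e. Runx3 was most like mt-Nd4l (r = 0.843), Rps29 and Rpl35, transcripts that are abundant in all cells, and Id3 like Gch1 (r = 0.824) and Gstt1. Sums of 1 tumour share a library and depth.

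Spatial codes were read as the ratio of code ZC1 to code ZC5, present in both matrices, within each tumour and class, and the labels do not say which region a code marked. Cells above the median ratio of their class are called ZC1-high and the others ZC5-high. Zeb2 in NK cells went opposite ways in the tumours, with 19.6 CPM in ZC1-high against 45.4 CPM in ZC5-high cells of tumour 1, and 71.3 CPM against 35.8 CPM in tumour 3. The counting intervals overlapped in tumour 1 (15 and 28 UMIs) but not in tumour 3 (83 and 44 UMIs). In ZC1-high CD8 T cells Zeb2 was lower in both tumours, at 30.9 CPM against 119 CPM in tumour 1 and 46.6 CPM against 75.6 CPM in tumour 3. These intervals also overlapped in tumour 1 (5 and 17 UMIs) but not in tumour 3. Id2 in CD8 T cells was 216 CPM in ZC1-high against 712 CPM in ZC5-high cells of tumour 1, on 19 and 20 cells, and 646 CPM against 753 CPM in tumour 3. With only the outer parts of the ratio compared (13 and 13 CD8 T cells in tumour 1, 86 and 87 in tumour 3), Id2 was 292 CPM in ZC1-high against 923 CPM in ZC5-high cells of tumour 1 and 767 CPM against 774 CPM in tumour 3. Zeb2 in NK cells was then 21.3 CPM in ZC1-high against 44.5 CPM in ZC5-high cells of tumour 1, and 41.7 CPM against 35.2 CPM in tumour 3. Its counting intervals then overlapped in both tumours. Tbx21 in NK cells was higher in ZC1-high cells in both tumours, at 61.5 CPM against 43.8 CPM and 49.8 CPM against 36.7 CPM, with overlapping counting intervals. Median code counts differed in opposite directions in the tumours. They were 338 UMIs in ZC1-high against 127 in ZC5-high NK cells of tumour 1 and 102 against 166 in tumour 3, and 381 against 192.5 in CD8 T cells of tumour 1 and 68 against 164.5 in tumour 3. The order of code counts therefore turned between the tumours in both classes. Zeb2 turned with it in NK cells but kept its order in CD8 T cells, and Tbx21 in NK cells kept its order too. The part of code counts in these values was not tested, and no test across cells was made.

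**Figure D4:**
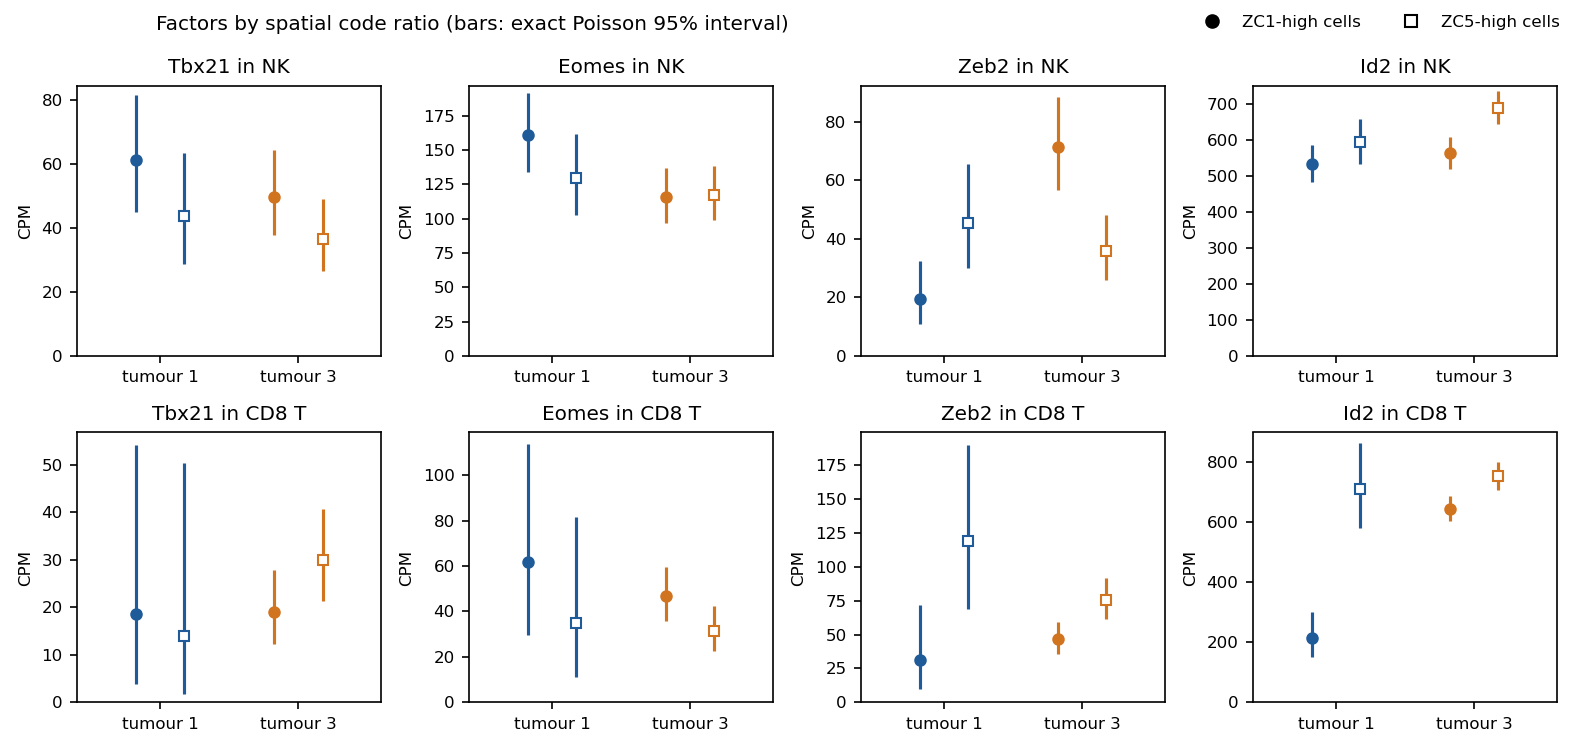
Tbx21, Eomes, Zeb2 and Id2 in CPM for ZC1-high (filled circles) and ZC5-high cells (open squares), in NK cells (top row) and CD8 T cells (bottom row) of each tumour; bars are exact Poisson 95% intervals. Zeb2 in NK cells was 19.6 against 45.4 CPM in tumour 1, where the intervals overlapped, and 71.3 against 35.8 CPM in tumour 3.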

How the data were processed

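The deposited matrices hold counts of UMIs per gene and barcode, not normalised by the authors. The submitters' processing notes name Cell Ranger 4.0 and mm10. The factors and gene lists were chosen with earlier results of these data known. Barcodes with at least 1000 gene UMIs, 500 genes and at most 10% mitochondrial UMIs were called cells. Gates used raw UMIs of fixed markers and limited phagocyte transcripts. The activated DC gate took precedence over the other DC gates. Other cells that passed several gates, 7 in tumour 1 and 94 in tumour 3, were left out. Doublets were treated only by these limits, and no caller was run. UMIs were summed per tumour and class, and CPM scale that sum to a common total. A class needed 10 cells in both tumours to enter the joint fit by edgeR 4.0.16 (TMM, filterByExpr, quasi-likelihood, gate genes left out) in R 4.3.3, with the tumour as a block since both classes come from 1 tumour. The procedure was tested on simulated data for CD8 T against CD4 T cells. Apart from the changed genes, all simulated sums shared a common profile without a tumour difference, so the effect of the tumour block was not tested. Of 200 changed genes, 14 were recovered at a 2-fold change and 120 at a 4-fold change. Of the genes called, 17.6% and 2.44% were false in that order. The limit on false calls, first set for each fold size, was pooled over fold sizes after the smaller one exceeded it. Free RNA was the sum of barcodes with 10 to 100 UMIs. Differences between the tumours correlated between the paired classes of a comparison at r = 0.0935 to 0.287 over 9474 genes, the fixed plasmacytoid gate left out. DESeq2 1.42.0, other cell filters, stricter gates, free RNA subtraction, no count filter and no block were tried. Intervals are exact Poisson or binomial at 95%, and a count of 0 allows 3 counts. Named genes were all 8 factors, the 3 most like each, and the 3 smallest p among those called in each list; some genes this rule names are not reported here.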

Additional observations from a re-analysis of the deposited data

How the results depend on the processing

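Without the replicate block, genes called numbered 177 in NK against CD8 T cells, 42 in CD8 against CD4 T cells, 6 in regulatory against CD4 T cells, 259 in cDC1 against cDC2 and 805 in activated DCs against cDC2, against 357, 172, 59, 527 and 1290 with it. Without a count filter the first 4 came to 650, 585, 291 and 834, out of 19576 genes tested against 9468 with the filter. DESeq2 called 305 in CD8 against CD4 T cells and 106 in regulatory against CD4 T cells. In regulatory against CD4 T cells an adaptive UMI minimum gave 29, free RNA subtraction 15 and CD4 T cells without Il2ra or Ikzf2 255. The adaptive minimum gave 210 in NK against CD8 T cells, and the CD4 gate without Il2ra or Ikzf2 gave 84 in CD8 against CD4 T cells. The share of calls that were higher in CD8 than CD4 T cells was 26.1% after free RNA subtraction against 41.3%. Among log2 fold changes that did not pass, signs turned for Id2 in NK against CD8 T cells at a 5% mitochondrial limit (-0.16), Ikzf3 (0.43, adaptive minimum, and 0.10, CD4 T without Il2ra or Ikzf2) and Id3 (-0.22, the same gate) in CD8 against CD4 T cells. In regulatory against CD4 T cells they turned for Tbx21 (-0.11, stricter gate, and -0.32, CD4 T without Il2ra or Ikzf2) and Eomes (-2.46, stricter gate), and in activated DCs for Runx3 (0.0126, adaptive minimum). The cause was not tested. Without a count filter, Runx3 in NK cells, Id2 in cDC1, Zeb2 and Ikzf3 in activated DCs and Zeb2 and Id3 in plasmacytoid DCs also passed (edgeR adjusted p of 0.0443, 0.000174, 0.00198, 0.00510, 0.0139 and 0.0211 in that order). With DESeq2, Ikzf3 in activated DCs passed (adjusted p = 0.0366). Of 7 called factor differences, Eomes in CD8 T cells, Zeb2 in cDC1 and Id2 in activated and plasmacytoid DCs passed under all their alternatives. Within single tumours called differences kept their sign. The stricter gate gave no DC value and the 5% limit no plasmacytoid value, since under 10 cells were left. With 15 to 39 conventional and activated DCs per tumour, absent transcripts were read against floors of 3.03 to 14.1 CPM.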
